A study of Mus musculus with 13 samples.

Results

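Fibroblasts of the pregnant mammary gland were compared with those of the adult virgin gland. The pregnancy library came from wild-type C57BL/6 females at pregnancy day 14.5 and the adult library from virgin 9-week wild-type C57BL/6 females. Each pooled 2 females, and each was the only library of its stage. All were stromal fractions sorted as Lineage– CD24– and sequenced with a 10x Genomics 3′ kit, so cells bearing CD31, CD45 or TER-119 had been depleted. The sort also selected against CD24, which the paper's gates place low on basal and high on luminal epithelial cells. The other stages used here were puberty (4 weeks), lactation (day 10) and involution (day 4), each with 1 library from the same strain. Mice with placebo pellets, and mice given MPA+E (the progestin medroxyprogesterone acetate with estrogen), were wild-type C57BL/6 females of 9 weeks with 2 libraries each, again from 2 females per library. The adult library and both placebo libraries, none labelled as pregnant, are together called the 3 control libraries. A barcode counted as a fibroblast when it held 500 to 7500 genes and at most 10% mitochondrial UMIs (unique molecular identifiers, each standing for 1 captured transcript). It also needed at least 50 UMIs of Dcn, Lum and Col1a2 together per 10000 and 0 UMIs of Epcam, Pecam1, Rgs5, Sox10, Ptprc and Myog. This kept 11501 of 13257 barcodes within the limits in pregnancy (86.8%) and 11951 of 12832 in the adult (93.1%), together 23452 of the 100523 fibroblast barcodes of the series. Near the limit of 50, 58 adult and 33 pregnancy barcodes that were kept scored 50 to 60, and 29 and 13 that were left out scored 40 to 50. Their UMIs were summed per library, to 47521842 in pregnancy and 73843100 in the adult, and are given as CPM, the count of a gene per 1000000 counts of its library.

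Mammary fibroblasts lie around the ducts and in the fat pad, where they make the collagens, elastin and proteoglycans of the stroma and secrete growth factors that act on the epithelium. During pregnancy progesterone, estrogen, prolactin and placental hormones drive ductal side branching and the growth of milk-producing alveoli. The stroma is remodelled around the expanding epithelium, and the fat cells of the pad shrink back. The question here was which genes differ between fibroblasts of the virgin and the mid-pregnant gland.

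Levels of 2 fibroblast markers that the selection did not use were read. Pdgfra, a growth factor receptor of mesenchymal cells, had 268 CPM in the adult and 218 in pregnancy, and Igfbp5 had 1829 and 2604. Igfbp5 did not separate fibroblasts from epithelium here. It had 2469 and 2562 CPM in barcodes under the limit of 50 with Epcam as their only excluded lineage gene. Of the markers of other cells, the pregnancy library held more of those of the epithelium. Summed over the 7 basal epithelial genes listed, 39.6 CPM were found in pregnancy, 4.58 in the adult, and 4.22 and 4.17 in placebo 1 and placebo 2. Barcodes with a UMI of Krt5, Krt14 or Krt17, keratins of basal cells, made up 423 of the pregnancy fibroblast barcodes (3.68%) and 30 of the adult ones (0.251%), and held 4.61% and 0.311% of the UMIs. Placebo 2 had 67 such barcodes (1.16%) and placebo 1 had 6 (0.124%). Endothelial genes summed to 44.4 CPM in pregnancy, 28.2 in the adult and 15.0 and 15.2 under placebo, so pregnancy was the highest of the 4. Pericyte genes summed to 35.6 CPM in pregnancy, 32.0 in the adult and 52.2 and 52.6 under placebo, and Schwann cell genes to 39.5 CPM in pregnancy, 34.9 in the adult and 38.4 and 27.8 under placebo. Immune genes summed to 6.31 CPM in pregnancy, 4.47 in the adult and 3.01 and 2.59 under placebo, and muscle genes to 4.04 CPM in pregnancy, 4.67 in the adult and 4.19 and 4.11 under placebo. The values of all 4 basal genes compared, and of Egfl7 in the endothelial list (1 of 2), were at least 2-fold higher, as was the only erythroid gene compared. No pericyte, Schwann, immune, muscle or mesothelial and keratinocyte gene was called, but only 1 of 11 immune and 1 of 6 muscle genes held enough UMIs to be compared. The leukocyte genes Cd79b and Csf1r, not on the list and looked up afterwards, were at least 2-fold above each of the adult and placebo libraries. Cd79b had 0.474 CPM in the adult and 2.32 in pregnancy, and Csf1r 0.704 and 1.54. Genes the selection excluded (Epcam, Pecam1, Rgs5, Sox10, Ptprc and Myog) are at 0 by construction. The main results were also computed without the basal keratin barcodes, a choice made after seeing the data. Depth per barcode differed, with a median of 3990 UMIs in pregnancy and 5805 in the adult. The placebo libraries were deeper, with 14158 and 12475 UMIs on 4843 and 5760 fibroblast barcodes. Rules on 0 or 1 UMI, as for the excluded lineage genes and the keratins, depend on depth and are not like for like across libraries. The libraries shared 50 barcodes, 33 of them among the fibroblasts.

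With 1 library a stage no test was possible, and intervals of ratios (95%, exact) cover counting error only. A gene was compared when it held at least 100 UMIs over both libraries, and was called when it was at least 2-fold apart. Of 12564 genes compared, 258 were called higher in pregnancy (2.05%) and 60 lower (0.478%), and 92.7% lay within 1.5-fold. The median log2 ratio was -0.02. Placebo 1 and placebo 2 were at least 2-fold apart in 154 of 12681 genes (1.21%). Each differed from the adult library in more genes than pregnancy did, placebo 1 in 734 of 12762 (5.75%) and placebo 2 in 765 of 12721 (6.01%). The placebo libraries were also deeper per barcode, and the part of depth in these counts was not tested. A 2-fold difference from the adult library alone is therefore no larger than many differences between control libraries, so placebo levels are given beside most genes. Counted against all 3 control libraries, 111 genes lay at least 2-fold above each of them in pregnancy (0.883%) and 14 at least 2-fold below each (0.111%). By any amount, 28.0% of genes lay above all 3 and 25.5% below all 3. Against the mean of the placebo libraries, 400 of the 12564 genes were at least 2-fold higher in pregnancy (3.18%) and 420 at least 2-fold lower (3.34%).

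**Figure D1:**
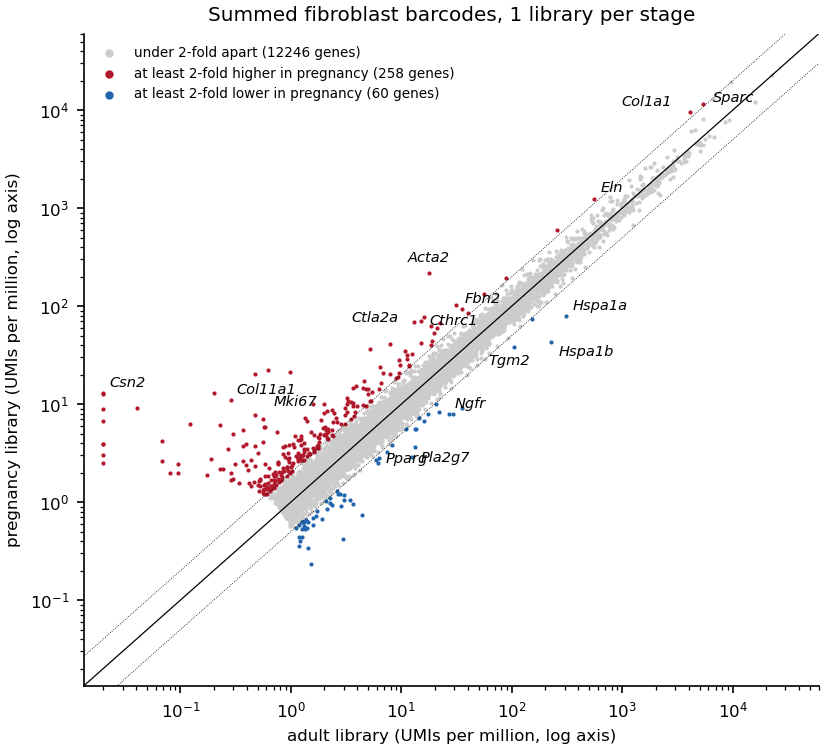
CPM of summed UMIs of the fibroblast barcodes in the adult (x) and pregnancy (y) library, both on log axes, for 12564 genes; the solid line marks equal levels and the dotted lines a 2-fold difference, and genes at 0 are drawn at the left or lower edge. Most genes follow the line, with 258 above the band and 60 below it, and the named genes at the upper right are Col1a1 and Sparc.

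Genes of the fibrillar and elastic matrix were among the most abundant transcripts that were called higher in pregnancy. Of 26 collagen chains compared, 4 were called higher and 0 lower, against 2.05% and 0.478% of all genes. The median log2 ratio was 0.53, against -0.02 over all genes, and 19 of the 26 lay above all 3 control libraries, against 28.0%. Against the placebo mean 1 of the 26 was at least 2-fold higher, against 3.18%. Col1a1 (ENSMUSG00000001506, chromosome 11, 94936224 to 94953042 in GRCm38), the main chain of type I collagen, had 4074 CPM in the adult, 7082 and 6155 in placebo 1 and 2, and 9437 in pregnancy. The pregnancy level was the highest of these 4 libraries, at 2.32 times the adult (2.31 to 2.33) and 1.33 times the nearest placebo library. Puberty was higher still, at 14043 CPM, and lactation and involution had 8763 and 8706. Col13a1, a transmembrane collagen, had 11.8 CPM in the adult, 18.8 and 15.3 under placebo and 24.6 in pregnancy. Col7a1, the chain of the fibrils that anchor epithelium to stroma, had 3.62, 10.9, 7.23 and 14.7 CPM in the same order, so that pregnancy was 4.06 times the adult but under 2-fold above placebo 1. Some chains are not on the list and were looked up after their values were seen. Of these, Col9a2, Col9a3, Col17a1 and Col25a1 were also at least 2-fold above the adult, at 1.98, 2.00, 1.66 and 2.504 CPM in pregnancy and 0.0948, 0.975, 0.284 and 0.758 in the adult. Without the basal keratin barcodes the log2 ratios were 3.13 for Col9a2, 0.50 for Col9a3, 0.79 for Col17a1 and 1.74 for Col25a1.

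Of the listed collagens Col11a1 had the highest ratio. This chain of type XI collagen, which helps to nucleate collagen fibrils, had 0.284 CPM in the adult, 0.633 and 0.555 under placebo and 11.03 in pregnancy. The pregnancy level was 38.8 times the adult (25.1 to 63.2), on 524 against 21 UMIs, and 17.4 times the higher placebo library. Its UMIs lay in few barcodes, 307 of 11501 in pregnancy and 19 of 11951 in the adult. Only 17.9% of the pregnancy UMIs lay in basal keratin barcodes, and without these the levels were 9.49 and 0.285 CPM. Each barcode was also thinned to 2000 UMIs, and then 1.54% of fibroblasts in pregnancy (1.31% to 1.80%) and 0.0619% in the adult (0.0249% to 0.127%) held a Col11a1 UMI. Non-fibroblast barcodes were here those under the limit of 50 with 1 of Pecam1, Rgs5, Sox10, Ptprc or Myog and no Epcam. They held Col11a1 more often than fibroblasts in both libraries, at 6.74% in pregnancy (13 of 193) and 4.88% in the adult (2 of 41). In pregnancy its level was 105 CPM in those with Sox10, 37.3 with Pecam1 and 0 with Rgs5, and 125 CPM in epithelial barcodes. The Sox10 barcodes, 83 of 267, had 19955 CPM of Acta2, against 17477 in epithelial barcodes. Of the pregnancy set 40.4% (78 of 193) held a Krt14 UMI, so it was not free of epithelial RNA. The part of RNA from non-fibroblast or epithelial cells in the fibroblast value was not tested.

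Among matricellular and elastic fibre genes, 4 of 32 compared were called higher and 0 lower, with a median of 0.05 on the log2 scale. Over all genes these shares were 2.05% and 0.478%. Against the placebo mean 4 were higher and 6 lower, where 3.18% and 3.34% of all genes were. Sparc (ENSMUSG00000018593), which binds collagen in the extracellular space, had 5353 CPM in the adult, 5784 and 5425 under placebo and 11576 in pregnancy. The 3 control libraries lay close together, and pregnancy was 2.16 times the adult and 2.00 times the higher placebo library. Eln, which encodes elastin, had 557, 516 and 472 CPM in the adult, placebo 1 and placebo 2, and 1250.3 in pregnancy, again more than 2-fold above each. Fbn2, a microfibril protein of growing tissue, had 31.6, 58.3, 41.5 and 103 CPM in this order, 3.25 times the adult. Mgp, matrix Gla protein, was 2.29 times the adult at 594 CPM, but the placebo libraries had 511 and 621 and overlapped pregnancy. Cthrc1, a secreted protein of collagen-producing cells, behaved likewise, with 15.0 CPM in the adult, 70.3 in pregnancy, and 62.6 and 88.5 under placebo.

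These matrix values hardly moved without the basal keratin barcodes, where the pregnancy over adult ratios were 2.33 for Col1a1, 2.17 for Sparc, 2.25 for Eln and 3.22 for Fbn2. They were also read within subsets of fibroblasts, taken as barcodes with a UMI of a marker after thinning. In barcodes with Pi16, a marker of progenitor-like fibroblasts, Col1a1 was 2.48 times the adult, Sparc 2.24 and Eln 2.25. In barcodes with Fabp4, a fatty acid carrier of the fat cell lineage, the ratios were 2.14, 1.93 and 3.0. In barcodes with Gdf10, a secreted BMP-family factor, they were 1.97, 1.95 and 2.48, where 745 of 1003 adult and 528 of 735 pregnancy barcodes held exactly 1 Gdf10 UMI. In barcodes with Thbs4, a thrombospondin of lobular fibroblasts, Col1a1 and Sparc were both 1.82 times the adult, whereas Eln was 1.10 times (1.06 to 1.14), from 1368 to 1504 CPM. The intervals of the Eln ratio in the Thbs4 barcodes and in the other 3 subsets do not overlap, for counting error only. The share of fibroblasts with an Eln UMI at 2000 UMIs was 45.0% in the adult (44.1% to 45.9%) and 67.4% in pregnancy (66.5% to 68.3%). In the non-fibroblast barcodes it was 12.2% (5 of 41) and 21.2% (41 of 193), and all 79 and 267 such barcodes within the limits had a median of 2178 and 2787 UMIs.

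**Figure D2:**
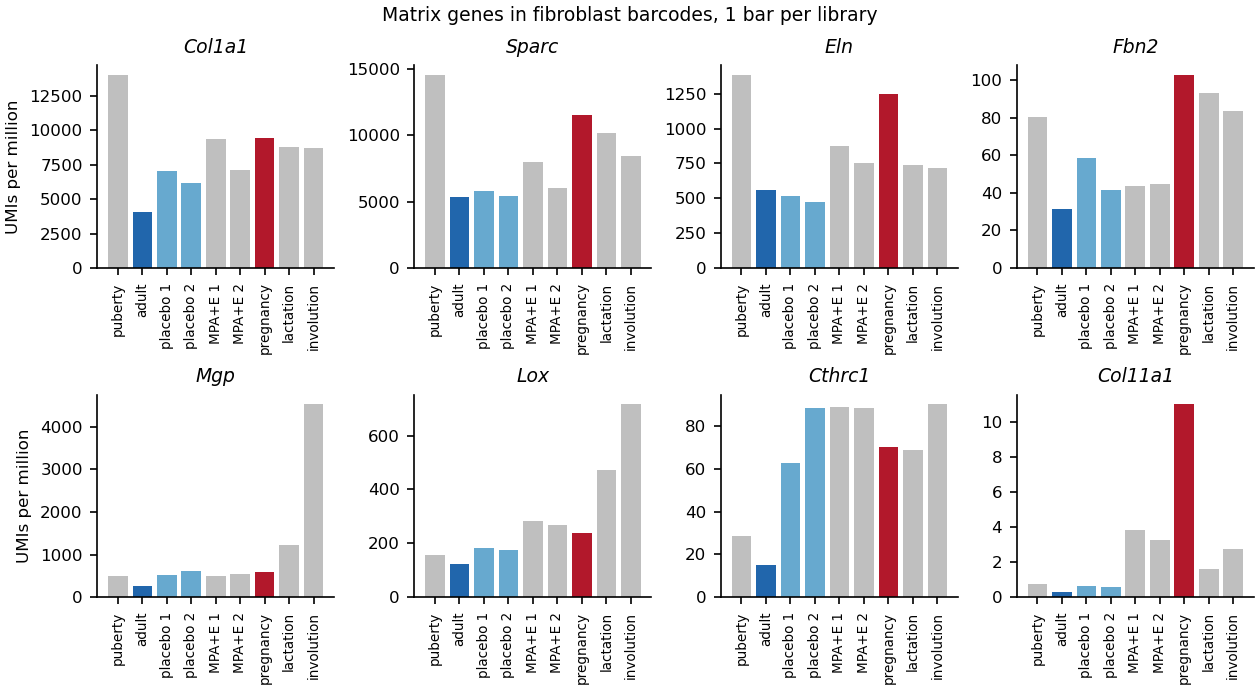
CPM of 8 matrix genes in the fibroblast barcodes of 9 libraries (1 bar per library; dark blue, adult; light blue, placebo; red, pregnancy; grey, others), with each axis starting at 0. Sparc and Eln are higher in pregnancy than in the 3 control libraries and lower than in puberty, Col11a1 is highest in pregnancy, and Mgp and Cthrc1 in pregnancy lie between the placebo libraries.

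The lists of enzymes that act on the matrix held 1 call. Over all genes 2.05% were called higher and 0.478% lower. Of 20 genes of collagen crosslinking and processing none was called, with a median log2 ratio of -0.03. The nearest was Lox, lysyl oxidase, with 124 CPM in the adult, 183 and 174 under placebo and 238 in pregnancy (1.92 times the adult). Of 24 matrix proteases and inhibitors 1 was called, Adamts15, a protease of proteoglycans, at 39.8, 39.0, 29.6 and 85.5 CPM in the adult, placebo 1, placebo 2 and pregnancy. These lists leave out Tgm2, called lower than the adult as given below, and Adamts17, called higher. Adamts17 had 1.04, 1.32, 1.37 and 3.87 CPM in the same order. Of 15 proteoglycan and hyaluronan genes 1 was called, Fmod, a collagen-binding proteoglycan, at 2.45 CPM in the adult and 8.06 in pregnancy. Placebo 2 had 4.58 CPM of Fmod, and 39.9% of its pregnancy UMIs lay in basal keratin barcodes. Kera, a proteoglycan that is not on the list and was looked up afterwards, was also called higher. It had 1.99 CPM in the adult, 4.22 and 2.86 under placebo and 9.93 in pregnancy, with 2.75% of its UMIs in basal keratin barcodes. In the basement membrane list 2 of 13 were called, the laminin chains Lama1 and Lama3, and both were mostly found in basal keratin barcodes (78.3% and 68.0% of the pregnancy UMIs). Without those barcodes 0 of the 11 genes compared in this list were called, since Lama1 and Lama3 no longer had the UMIs to be compared. Lama1 then had 0.574 CPM in pregnancy, 0 in the adult and 0.0865 and 0.0562 under placebo. Lama3 had 0.728, 0.204, 0.101 and 0.0983 CPM in the same order, 3.57 times the adult. The list's median was 0.38, and 0.35 without the basal keratin barcodes. Of the 29 genes of protein folding and secretion in the endoplasmic reticulum none was called. Hspa5, the main chaperone there, had 1407 CPM in the adult and 960.0 in pregnancy, below both placebo libraries (1506 and 1463).

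Genes of smooth muscle contraction gave large ratios, and most UMIs of the leading ones lay in the basal keratin barcodes. Acta2, smooth muscle actin, had 17.8 CPM in the adult, 25.7 and 43.0 under placebo and 219 in pregnancy, a ratio of 12.3 (11.6 to 13.1). Of the pregnancy UMIs 76.8% lay in the 423 basal keratin barcodes. Without these barcodes the levels were 16.6 CPM in the adult, 25.7 and 41.6 under placebo and 53.3 in pregnancy. Pregnancy was then still the highest of the 4 but under 2-fold above placebo 2. Actg2, a further smooth muscle actin, had 9.11 CPM in pregnancy and 0.0406 in the adult, where it rested on 3 UMIs (ratio 224, 76.2 to 1090), and Cnn1, calponin, had 20.2 and 0.474 CPM. Basal keratin barcodes held 86.1% and 88.0% of these pregnancy UMIs. Without them Actg2 had 1.32 CPM in pregnancy, 0.216 and 0.239 under placebo and 0.0272 in the adult, and Cnn1 had 2.54, 0.187, 0.772 and 0.367, so that both were still at least 2-fold above each control library. Myh11, smooth muscle myosin, was 7.02 times the adult over all fibroblast barcodes and 2.38 times without the basal keratin barcodes, where it had 11.8 CPM against 11.7 and 15.0 under placebo. For Mylk, the kinase that activates myosin, these ratios were 5.18 and 2.41, and without those barcodes it had 18.8 CPM against 12.4 and 15.3 under placebo. For Tagln, an actin-binding protein, the ratios were 4.82 and 1.66, with 25.7 CPM in pregnancy against 27.1 and 39.7 under placebo. Without the basal keratin barcodes pregnancy thus lay between the placebo libraries for Myh11, below both for Tagln, and under 2-fold above both for Mylk. In the list of 18 contractile and cytoskeletal genes 6 were called higher over all barcodes, against 2.05% of all genes. Without the basal keratin barcodes 3 of 17 were called, since Tagln and Tpm2 fell under 2-fold and Actg2 no longer had the UMIs to be compared. The median was 0.05 and then 0.00, so that the middle of the list lay near equal levels.

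Some genes of secreted factors moved with these barcodes as well. Il17b, a cytokine of the IL-17 family, had 0.203 CPM in the adult and 13.0 in pregnancy (ratio 63.8, 38.4 to 115). Of its pregnancy UMIs 87.3% lay in basal keratin barcodes, and 1.72 CPM remained without them, against 0.0543 in the adult and 0.0432 and 0.0421 under placebo, a ratio to the adult of 31.7. Nrg1, a ligand of the ErbB receptors on luminal cells, had 0.474 CPM in the adult, 0.907 and 1.12 under placebo and 7.66 in pregnancy. Without the basal keratin barcodes 0.993 CPM were left, between the placebo values of 0.908 and 1.14. Epithelial barcodes were those with Epcam as the only excluded lineage gene and under 50 UMIs of Dcn, Lum and Col1a2 per 10000. In those of the pregnancy library Il17b had 1416 CPM, Nrg1 491, Acta2 17477 and Myh11 1855. Whether the basal keratin barcodes held epithelial cells, mixed droplets or free RNA was not tested. Without them 206 of 12493 genes were called higher (1.65%) and 66 lower (0.528%), and 222 of the 258 genes called higher at first were still at least 2-fold higher, counting those that no longer held 100 UMIs. This step did not take out luminal genes. Of 13 milk protein and luminal genes then compared, 9 were still called higher, with a median log2 ratio of 5.06.

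**Figure D3:**
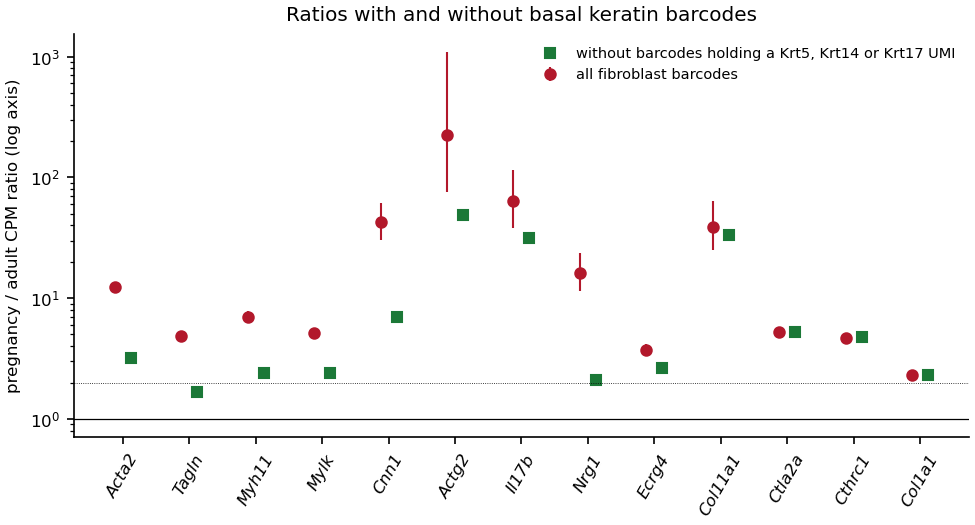
Ratio of pregnancy to adult CPM for 13 genes on a log axis, over all fibroblast barcodes (red circles, with 95% intervals for counting error) and without barcodes that held a Krt5, Krt14 or Krt17 UMI (green squares); the dotted line marks 2-fold. The ratios of the contractile genes and of Nrg1 are smaller without these barcodes (Acta2, 12.3 and 3.20), while those of Ctla2a, Cthrc1 and Col1a1 are nearly the same.

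Milk genes were found at a low level in pregnancy and hardly at all in the adult. Of 14 milk protein and luminal genes compared, 10 were called higher, against 2.05% of all genes, and 9 lay at least 2-fold above all 3 control libraries, against 0.883%. Csn2, beta-casein, had 0 UMIs in the adult and both placebo libraries and 610 UMIs, 12.8 CPM, in pregnancy. Set against a floor of 3 UMIs the ratio was 316, while the exact interval at an adult count of 0 reaches down to 256-fold. In lactation it had 179.6 CPM. The UMIs were spread over 505 pregnancy barcodes. Thinned to 2000 UMIs, 2.28% of pregnancy fibroblasts (2.00% to 2.59%) and 2.59% of the non-fibroblast barcodes (5 of 193) held a Csn2 UMI. These non-fibroblast barcodes were not free of epithelial RNA, since 40.4% of them (78 of 193) also held a Krt14 UMI. Their Csn2 level was 26.1 CPM, above that of the fibroblasts, and epithelial barcodes of this library had 1813 CPM. Hbb-bs, a haemoglobin chain, had 3.94 CPM in pregnancy in 17 barcodes.

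Genes of cell division were higher in pregnancy, at low levels and in few barcodes. Of 27 proliferation genes compared, 10 were called higher and 0 lower, against 2.05% and 0.478% of all genes, and 5 lay at least 2-fold above all 3 control libraries, against 0.883%. The list's median was 0.66, and 0.68 without the basal keratin barcodes. Mki67, a marker of cycling cells, had 2.37 CPM in the adult, 4.45 and 2.36 under placebo and 8.73 in pregnancy. Top2a, the topoisomerase that untangles chromosomes before mitosis, had 3.28, 6.82, 3.16 and 10.8 CPM in the same order, and Cenpf, a kinetochore protein, 1.98, 4.55, 1.37 and 8.08. Pregnancy was the highest of the 4 in each case, under 2-fold above placebo 1, and puberty was higher still (10.96, 14.9 and 10.4 CPM). The histone gene Hist1h2ap had 4.55 CPM in the adult, 0.965 and 0.333 under placebo and 17.1 in pregnancy. Genes of DNA replication, singled out after their values were seen, did not share this: Pcna had a log2 ratio of -0.67, and Mcm2 to Mcm7 lay between -0.35 and 0.12. Thinned to 2000 UMIs, 0.805% of pregnancy fibroblasts (0.640% to 0.998%) and 0.212% of adult ones (0.136% to 0.316%) held at least 3 UMIs of 11 mitosis genes. Unthinned shares were 1.21% and 0.318%. In the non-fibroblast barcodes of pregnancy the thinned share was 7.77% (15 of 193). Of 14 cell cycle inhibitors none was called.

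Both genes of the inducible heat shock protein HSP70 were lower in pregnancy than in all 3 control libraries. Hspa1b (ENSMUSG00000090877) had 225 CPM in the adult, 223 and 256 under placebo and 43.3 in pregnancy, 5.19-fold lower than the adult (4.96 to 5.44). Its neighbour Hspa1a had 309, 196, 256 and 78.7 CPM. Pregnancy lay at least 2-fold below every control library for both, puberty was also low (75.6 and 122 CPM), and lactation and involution were high, from 883 to 1019 CPM. The ratio of Hspa1b was alike in the subsets with Pi16 (0.211), Gdf10 (0.188), Thbs4 (0.173) and Fabp4 (0.192). Heat shock and immediate early genes are known to be induced by tissue dissociation. Of 31 such genes 2 were called, both lower, against 0.478% of all genes. The list's median was -0.20, and 23 of the 31 lay below all 3 control libraries, against 25.5% of all genes. Their summed level was 38668 CPM in pregnancy, 44483 in the adult, and 57048 and 62613 in placebo 1 and 2. The list leaves out the immediate early genes Arc, called lower as given below, and Egr4, called higher. Egr4 had 0.2302 CPM in the adult, 0.1728 and 0.2496 under placebo and 2.188 in pregnancy. Of its pregnancy UMIs 72.1% lay in basal keratin barcodes. Its log2 ratio was 3.249, and 1.557 without those barcodes. Whether handling of the tissue moved these genes was not tested.

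The promoters of this pair are shown because the genes lie next to each other and are nearly identical, so that reads could be split between them and their separate levels are uncertain. They are RefSeq sequences of GRCm38.p6 that run from 250 bases before to 50 bases after the start, both on the minus strand, at chr17:34972107-34972406 for Hspa1a and chr17:34959189-34959488 for Hspa1b. Capitals mark the letters GAANNTTC or TTCNNGAA, the core of a heat shock element, searched on both strands.
Hspa1a: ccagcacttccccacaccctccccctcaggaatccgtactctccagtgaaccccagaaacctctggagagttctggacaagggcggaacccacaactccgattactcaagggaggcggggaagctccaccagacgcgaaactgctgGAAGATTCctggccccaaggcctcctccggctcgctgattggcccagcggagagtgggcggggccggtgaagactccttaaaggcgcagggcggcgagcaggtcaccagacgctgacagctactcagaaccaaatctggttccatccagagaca
Hspa1b: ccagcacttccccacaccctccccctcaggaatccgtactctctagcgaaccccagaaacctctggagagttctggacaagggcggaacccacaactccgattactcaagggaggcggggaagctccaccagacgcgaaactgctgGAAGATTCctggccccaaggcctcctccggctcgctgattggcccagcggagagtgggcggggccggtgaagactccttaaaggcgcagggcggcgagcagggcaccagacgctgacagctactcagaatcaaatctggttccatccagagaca
The windows were identical in 296 of 300 bases (98.7%), and each held 1 match at the same place. Of all 32851 RefSeq promoters of 300 bases, 15.1% held a match. A match is a description of letters and does not show binding.

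Other genes low in pregnancy fell into those that were also below the placebo libraries and those that were not. Of the 60 genes called lower, 33 lay below both placebo libraries and 27 did not. Cd36, a fatty acid transporter, had 13.4 CPM in the adult, 22.8 and 15.3 under placebo and 5.60 in pregnancy, and Pparg, the master regulator of fat cell formation, 11.1, 23.2, 19.8 and 5.53. Both lay at least 2-fold below each control library. Car3, a carbonic anhydrase of fat cells, had 16.1, 12.8, 9.72 and 6.78 CPM, 2.37-fold lower than the adult but under 2-fold below each placebo library. These were the 3 genes called among 24 of adipogenesis and lipid handling, all lower, against 0.478% of all genes. The list's median was -0.01. Lpl, lipoprotein lipase, had 660.5 CPM in the adult, 927 and 811 under placebo and 961 in pregnancy and was not called. Apoe, a lipid carrier, had 464, 538, 534 and 249 CPM in the adult, placebo 1, placebo 2 and pregnancy, and missed the 2-fold rule at 1.86-fold lower. Without the basal keratin barcodes Apoe passed it, with 461 CPM in the adult and 217 in pregnancy, and Pparg no longer did, with 11.1 and 5.60 CPM. Pla2g7, a phospholipase, had 13.2, 38.1, 31.7 and 3.64 CPM in this order and was the lowest of the 4 in pregnancy. Arc, an immediate early gene, was also below every control library, with 8.38 CPM against 18.4 to 31.9; with all barcodes in the limits kept, non-fibroblasts included, its log2 ratio turned to 0.17.

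By contrast, 4 of the 12 named genes with the lowest ratios, among the 27, were not below either placebo library. Ngfr, the low-affinity nerve growth factor receptor, had 26.7 CPM in the adult and 7.87 in pregnancy, but 4.41 and 4.20 under placebo. Tgm2, a transglutaminase that crosslinks matrix proteins, had 104, 38.7, 21.9969 and 30.5 CPM in the same order of libraries. Ptpn5, a tyrosine phosphatase, had 35.3 in the adult, 9.22 in pregnancy and 3.33 and 3.90 under placebo, and Cldn11, a tight junction claudin, 29.5, 7.98, 6.26 and 7.54. For all 4 genes the pregnancy library lay above both placebo libraries. Against the placebo mean their log2 ratios were 0.87, 0.56, 1.35 and 0.21, the opposite direction. Cited1, a transcriptional co-regulator, had 13.6 CPM in the adult, 5.62 in pregnancy and 10.97 and 8.70 under placebo, and Tchh, trichohyalin, 12.5, 2.90, 5.44 and 5.08. For Cited1 and Tchh the pregnancy library was the lowest of the 4.

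Of 8 genes compared on the list of steroid receptors, which also holds the estrogen target Greb1, 0 were past 2-fold from the adult in either direction, with a median of 0.03. Over all genes 2.05% were called higher and 0.478% lower. Against the placebo mean 2 of the 8 were at least 2-fold higher, Pgr and Greb1, where 3.18% of all genes were. Pgr, the progesterone receptor, had 41.1 CPM in the adult, 9.59 and 13.7 under placebo and 34.8 in pregnancy, so that pregnancy lay near the adult and above both placebo libraries. Esr1, the estrogen receptor, had 56.1 CPM in the adult, 71.8 and 64.7 under placebo and 70.8 in pregnancy. Greb1 had 28.6 CPM in the adult, 25.7 in pregnancy and 6.03 and 6.82 under placebo. Among 10 genes of prolactin, growth hormone and relaxin signalling only Oxtr, the oxytocin receptor, was called (2.60 CPM in the adult, 3.69 and 2.32 under placebo and 6.61 in pregnancy, 2.54 times the adult), and it fell short of 2-fold without the basal keratin barcodes (2.53 and 4.96 CPM). Socs2, a feedback inhibitor induced by growth hormone and prolactin, had 81.7 CPM in the adult, 43.2 and 87.7 under placebo and 162 in pregnancy, the highest of the 4 and 1.99 times the adult. Socs3 and Socs1 on the same list were instead lower in pregnancy than in all 3 control libraries. Socs3 had 418, 797, 646 and 284 CPM in the adult, placebo 1, placebo 2 and pregnancy, and Socs1 had 117, 186, 122 and 85.3. Of 16 steroid-metabolising enzymes none was called. Hsd11b1, which regenerates active glucocorticoid, had 92.0, 141, 135 and 47.4 CPM in the adult, placebo 1, placebo 2 and pregnancy and was the nearest at 1.94-fold lower.

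The genes were set beside the MPA+E and placebo libraries, a comparison that shares no library with pregnancy and adult. Among 12527 genes compared in both, 202 were at least 2-fold higher in both MPA+E libraries than in both placebo libraries (1.61%) and 130 lower (1.04%). Of 233 genes called higher in pregnancy 22 were also higher under MPA+E, 9.44% of the pregnancy genes and 10.9% of the MPA+E genes, and 5 were lower under MPA+E. Of 56 genes called lower in pregnancy 3 were lower under MPA+E (5.36% and 2.31% of the lists) and 9 were higher (16.1% and 4.46%). These 9 include Ngfr, Tgm2 and Ptpn5, which were lower than the adult in pregnancy but higher than the placebo mean, the control of MPA+E. Ctla2a, an inhibitor of cathepsin proteases, was higher in both. It had 12.9 CPM in the adult, 8.05 and 11.4 under placebo, 68.0 in pregnancy, and 1674 and 1375 under MPA+E. Pregnancy was 5.26 times the adult (4.89 to 5.66) and above every control library, yet far below MPA+E. Its UMIs lay in 405 pregnancy barcodes and 188 adult ones. It is also a gene of endothelial cells, whose listed genes summed to 44.4 CPM in pregnancy and 15.0 to 28.2 in the control libraries, and in endothelial barcodes it had 2487 CPM in pregnancy and 1400.1 in the adult. After thinning 2.35% of pregnancy fibroblasts and 0.831% of adult ones held a UMI, against 13.5% (26 of 193) and 12.2% (5 of 41) of the non-fibroblast barcodes. In the Thbs4 subset its ratio was 1.08 (0.835 to 1.39), and in the Pi16 subset 5.2 (4.62 to 5.85).

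Other genes higher in both comparisons were H2-Q6 and H2-Q7, class I major histocompatibility genes. H2-Q6 had 7.84 CPM in the adult, 8.09 and 7.53 under placebo, 20.5 in pregnancy and 42.1 and 51.0 under MPA+E. H2-Q7 had 18.6, 23.9, 18.9, 39.6, 119.6 and 139 CPM in the same order. These 2 are close copies, so their separate levels are uncertain. They were the 2 called of 17 genes of class I presentation, against 2.05% of all genes called higher. Crabp1, a retinoic acid carrier, had 19.8 CPM in the adult, 39.7 and 26.0 under placebo, 52.5 in pregnancy and 91.8 and 92.4 under MPA+E. Ngfr and Tgm2, lower in pregnancy than in the adult but higher than under placebo, had 63.0 and 74.8, and 181 and 277 CPM under MPA+E. Sparc and Eln, higher in pregnancy than in every control library by over 2-fold, had 8034 and 6070.1, and 874 and 754 CPM under MPA+E, above both placebo libraries but under 2-fold.

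Promoters of Ctla2a and Sparc are shown because these genes were at least 2-fold above each control library in pregnancy. Capitals mark TGTTCT or its complement AGAACA, the half-site bound by the receptors of progesterone and glucocorticoids, searched on both strands. Both are on the minus strand of GRCm38.p6 in RefSeq, at chr13:60936576-60936875 and chr11:55420031-55420330, and the first is 1 of 2 starts listed for Ctla2a.
Ctla2a: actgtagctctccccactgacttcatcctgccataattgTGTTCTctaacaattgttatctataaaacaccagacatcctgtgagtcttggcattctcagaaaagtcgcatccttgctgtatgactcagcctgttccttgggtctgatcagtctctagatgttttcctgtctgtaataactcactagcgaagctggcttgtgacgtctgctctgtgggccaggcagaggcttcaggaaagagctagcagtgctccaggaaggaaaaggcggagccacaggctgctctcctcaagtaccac
Sparc: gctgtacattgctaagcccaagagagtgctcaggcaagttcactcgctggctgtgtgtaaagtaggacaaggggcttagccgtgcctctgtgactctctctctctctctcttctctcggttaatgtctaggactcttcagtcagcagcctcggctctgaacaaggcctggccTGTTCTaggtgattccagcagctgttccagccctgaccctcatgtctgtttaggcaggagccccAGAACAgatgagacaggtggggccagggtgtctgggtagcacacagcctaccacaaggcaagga
The Ctla2a window held 1 match and the Sparc window 2, while the window of the other Ctla2a start, at chr13:60936517-60936816, held 0. Of all 32851 promoters 18.97% held at least 1, so such a match is common.

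**Figure D4:**
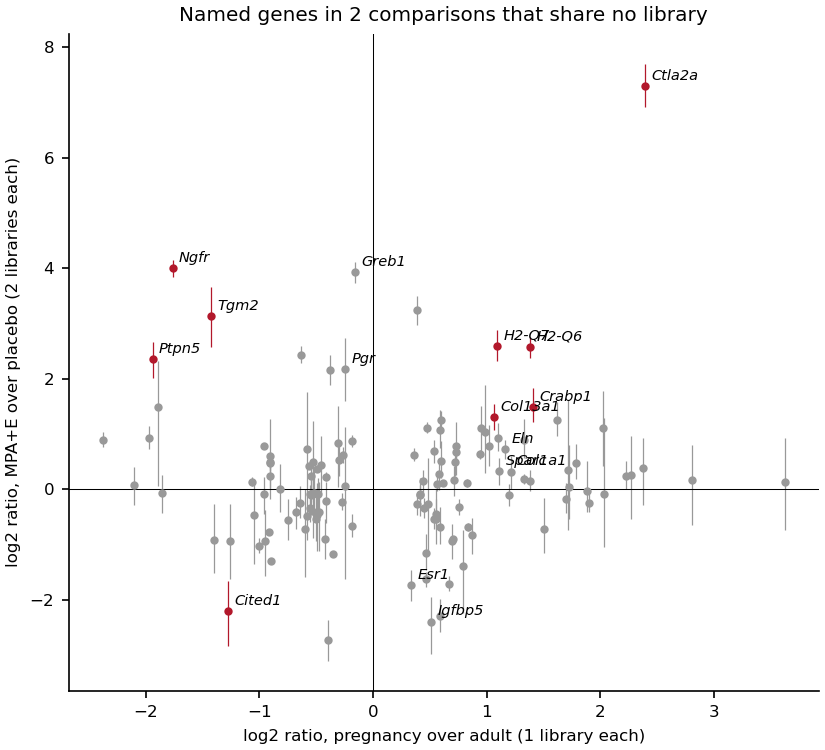
Log2 ratio of pregnancy over adult (x, 1 library each) against log2 ratio of the mean of MPA+E over the mean of placebo (y, 2 libraries each) for 130 named genes with at least 1 CPM; bars span the lowest to the highest ratio over the 4 pairs of libraries, and genes at least 2-fold apart in both comparisons are red. Ctla2a lies far above the others at the upper right, Ngfr, Tgm2 and Ptpn5 at the upper left, and Sparc, Eln and Col1a1 between 0 and 1 on the y axis.

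Growth factor genes were called in both directions. Of 34 growth factor genes for epithelium and vessels 4 were called higher and 2 lower, against 2.05% and 0.478% of all genes, and 2 were higher and 2 lower of 33 without the basal keratin barcodes. Angpt2, a ligand that destabilises vessels, had 6.77 CPM in the adult, 21.4 and 14.4 under placebo and 20.9 in pregnancy. Mdk, midkine, had 35.8, 76.8, 88.9 and 93.3 CPM in the same order, so that pregnancy was 2.61 times the adult but close to placebo 2. H19, an imprinted non-coding RNA next to Igf2, had 21.0, 31.3, 57.3 and 59.7 CPM and was the 1 gene called of 10 in the IGF family list. Of 16 guidance cue genes 1 was called, the receptor Robo2 (3.06, 5.08, 3.37 and 7.70 CPM).

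In signalling pathways the calls depended on the control library. Against the adult 2.05% of all genes were called higher and 0.478% lower. Of 27 Wnt pathway genes 1 was called, Dkk3, with 6.61 CPM in the adult and 16.6 in pregnancy, below 20.4 and 21.3 under placebo. None of 37 TGF-beta and BMP genes and none of 11 Hedgehog genes was called, with medians of -0.15 and -0.13. Of these, 20 of the 37, and 16 of the 27 Wnt genes, lay below all 3 control libraries, against 25.5% of all genes. Their medians against the placebo mean were -0.47 and -0.70. Against that mean 8 of 27 Wnt, 8 of 37 TGF-beta and BMP and 3 of 11 Hedgehog genes were at least 2-fold lower, and 0 higher, where 3.34% of all genes were lower. Ptch1, a receptor and target of Hedgehog, had 6.68 CPM in the adult, 8.98 and 6.24 under placebo and 3.79 in pregnancy. None of the 33 chemokines and cytokines on the list and none of 29 interferon-induced genes was called, while 7 of the 33 were at least 2-fold below the placebo mean. Of the interferon-induced genes 5 were at least 2-fold above that mean, where 3.18% of all genes were, and 2 below. Their medians were -0.08 against the adult and 0.46 against the placebo mean. The list leaves out Il17b, and also Ccl5 and Ccl12, which were higher than the adult by 2.12 and 2.80 on the log2 scale, and Il23a, which was lower at -1.04, as seen when their values were looked up afterwards. Ccl11, which attracts eosinophils, had 135 CPM in the adult, 425 and 418 under placebo and 90.2 in pregnancy, the lowest of the 4. Of 30 mesenchymal transcription factors 1 was called, Meox1 (20.7 CPM in the adult, 15.4 and 16.1 under placebo and 10.0 in pregnancy). Of 13 complement genes 1 was called, Cd59a (1.77 and 3.60 CPM), with 3.84 and 2.84 under placebo, and of 22 genes of glycolysis and hypoxia 1, Ankrd37, on 101 adult and 31 pregnancy UMIs (1.37 CPM in the adult, 1.30 and 1.39 under placebo and 0.652 in pregnancy).

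**Figure D5:**
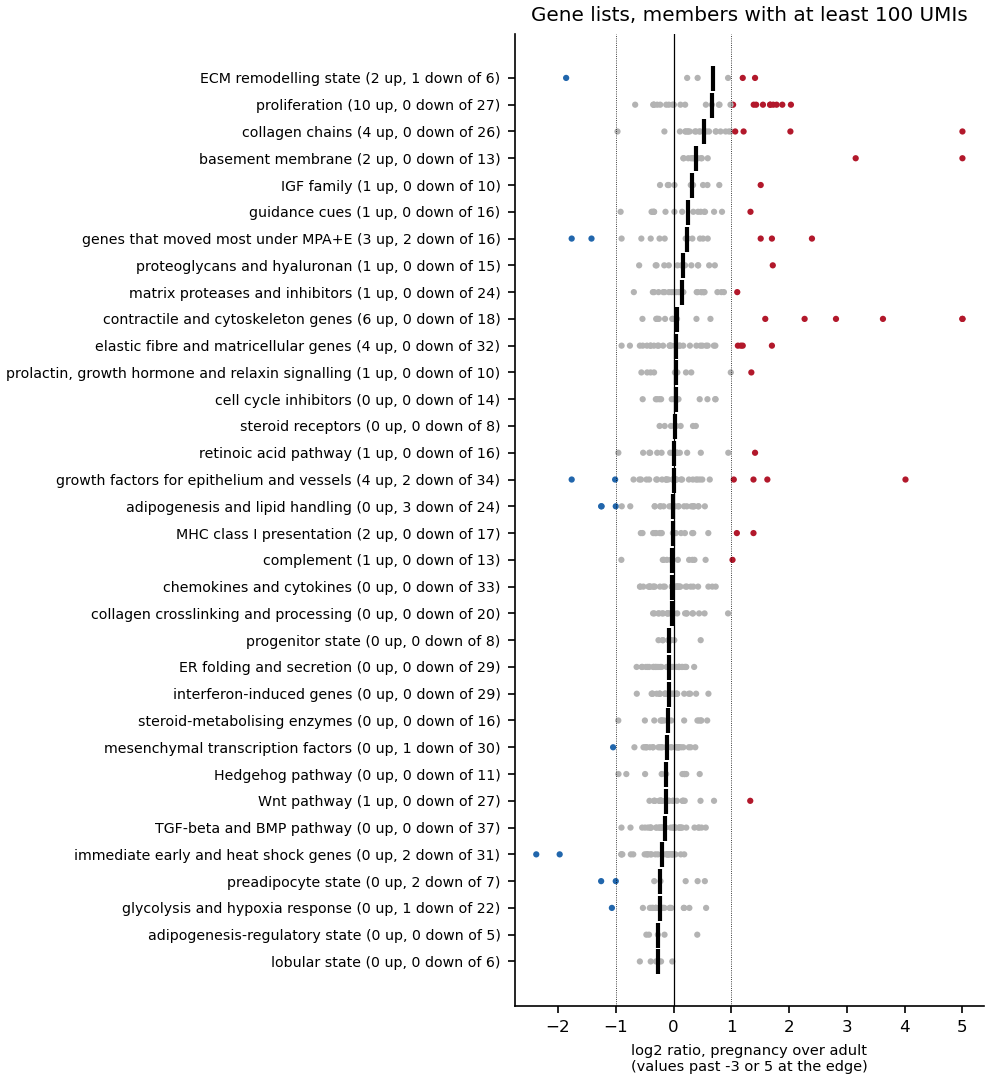
Log2 ratio of pregnancy over adult for each member with at least 100 UMIs (points; red, at least 2-fold higher; blue, at least 2-fold lower) in 34 gene lists ordered by median (black tick), with counts of calls in brackets and values past 5 drawn at the edge. The ECM remodelling, proliferation and collagen lists have the highest medians (0.68, 0.66 and 0.53, but 0.06, 0.61 and 0.42 against the placebo mean), and no steroid receptor, chemokine, interferon, TGF-beta or Hedgehog list holds a call.

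Of 16 retinoic acid pathway genes 1 was called, Crabp1. Of 16 genes listed because they moved most under MPA+E, which were picked from these libraries, 3 were higher in pregnancy and 2 lower. Among marker lists of the fibroblast states described in the study, only the preadipocyte and ECM remodelling lists held calls. Over all genes 2.05% were called higher and 0.478% lower. The study chose these lists with these libraries, so their direction is not independent of them. None of 8 progenitor, 6 lobular and 5 adipogenesis-regulatory genes was called. Against the placebo mean 1 progenitor gene and 2 adipogenesis-regulatory genes were at least 2-fold lower, and the median of the latter list was -0.83. In the preadipocyte list 2 of 7 were lower, Cd36 and Pparg, and without the basal keratin barcodes 1. In the ECM remodelling list 2 of 6 were higher, Crabp1 and Mgp, and Pla2g7 was lower, while against the placebo mean 0 were higher and 1 lower. Shares of fibroblasts with a marker UMI were read after thinning to 2000. For Pi16 they were 54.7% in the adult (53.8% to 55.6%) and 58.3% in pregnancy (57.3% to 59.2%), against 4.88% (2 of 41) and 6.22% (12 of 193) of the non-fibroblast barcodes. For Gdf10 they were 8.87% (8.35% to 9.41%) and 7.21% (6.72% to 7.73%), and for Thbs4 11.3% (10.8% to 11.9%) and 8.84% (8.3% to 9.41%). For Crabp1, of the ECM remodelling list, they were 3.53% (3.19% to 3.88%) and 4.69% (4.29% to 5.12%). Each of Gdf10, Thbs4 and Crabp1 was found in at most 1 of 193 of those other barcodes. For Fabp4 they were 12.2% and 12.8%. This gene is also made by endothelial cells, and 70.7% and 52.3% of the other barcodes held it. Thbs4 itself had 284 CPM in the adult, 119.7 and 183 under placebo and 189 in pregnancy, so that the pregnancy level lay close to placebo 2.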

How the data were processed

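Single-cell RNA-seq was measured in fibroblasts of 1 adult and 1 pregnancy library, with the other libraries read for comparison. The authors aligned reads with Cell Ranger (6.1.2 in the submitters' processing notes, mm10) and deposited filtered matrices of raw UMI counts per gene and barcode. From these, barcodes were selected by the limits given above, their counts were summed per library, and CPM were computed. No test was run, because each stage has 1 library. Ratios carry exact Clopper-Pearson intervals of 95%, for counting error only, and a side at 0 was set to 3 UMIs. Genes needed 100 UMIs over both libraries and were called at 2-fold. Named genes were the 12 highest and 12 lowest ratios with at least 10 CPM in the higher library, leaving out predicted, mitochondrial and ribosomal genes and other-cell-type lists, and up to 4 genes per list with the largest absolute ratio. The genes, lists and comparisons were chosen with earlier results of these data known. Shares were computed after thinning barcodes to 2000 UMIs, which 11312 adult and 10191 pregnancy fibroblast barcodes reached. Doublets were kept in the values reported and removed by score as an alternative. Alternatives also changed scaling (TMM in edgeR 4.0.16), filters and the control libraries. Genome positions are from GRCm38 (GENCODE), where 32158 of 32285 gene IDs matched. Scripts used Python 3.11.15, NumPy 2.4.6, pandas 2.3.3, SciPy 1.17.1, scanpy 1.11.5 and R 4.3.3, and the ratio script was tested on simulated data.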

Additional observations from a re-analysis of the deposited data

How the results depend on the processing

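The 258 genes higher and 60 lower became 2938 and 632 with no filter on UMIs, 46 and 17 at 1000 UMIs or more, and 604 and 314 at 1.5-fold. The higher genes became 682 with non-fibroblasts kept and 110 with barcodes thinned to 2000 UMIs, where fewer genes pass the filter. With the placebo mean as control they were 419 and 554, and with 1 placebo library left out they ranged from 339 to 486 higher and from 447 to 600 lower. Against each of the adult, placebo 1 and placebo 2, an alternative chosen after seeing the data, 111 and 14 were left. Of 62 named genes called, 62 were still 2-fold apart after TMM scaling, 60 without doublets and 40 against the placebo mean, where 6 reversed.

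The reversed log2 ratios against the placebo mean, without placebo 1 and without placebo 2 were 1.35, 1.24 and 1.47 for Ptpn5, 0.21, 0.08 and 0.35 for Cldn11, 0.87, 0.91 and 0.84 for Ngfr, 0.56, 0.34 and 0.81 for Tgm2, and -0.33, -0.36 and -0.30 for Dkk3. Cthrc1 had -0.10 against the mean and -0.33 without placebo 1. Mgp had -0.064 without placebo 1 and 0.216 without placebo 2, Angpt2 had 0.537 without placebo 1 and -0.041 without placebo 2, and Cd59a had -0.10 without placebo 2. Arc had 0.17 with non-fibroblasts kept. The cause was not tested. No paired analysis was possible because the adult and pregnancy stages have 1 library each and no replicate numbers. With 1 library a stage, the stage cannot be told apart from the library, the 2 females in it or its run.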

Other observations

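Genes of the circadian clock and of sterol synthesis were looked at after their values were seen. Nr1d1, a nuclear receptor that represses clock genes, had 3.25 CPM in the adult, 1.34 and 1.12 under placebo, 6.102 and 5.85 under MPA+E and 11.4 in pregnancy. Its relative Nr1d2 had 9.68 CPM in the adult, 8.45 and 10.1 under placebo and 25.3 in pregnancy, at least 2-fold above each control library. Dbp, a clock output factor, was 2.72 times the adult (2.19 to 3.38), but had 2.95 and 3.16 CPM under placebo against 5.01 in pregnancy. Other clock genes were under 2-fold from the adult, with ratios of 1.75 for Per3 (1.46 to 2.10), 1.64 for Tef (1.42 to 1.89), 1.28 for Per1, 1.05 for Per2, 1.24 for Arntl, 1.24 for Clock, 1.16 for Cry2 and 0.705 for Cry1.

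Idi1, an enzyme of sterol synthesis, had 14.3 CPM in the adult, 27.3 and 22.9 under placebo and 7.15 in pregnancy. Fdps, the next enzyme of that pathway, had 28.2 CPM in the adult, 30.4 and 20.9 under placebo and 16.9 in pregnancy. Pregnancy was the lowest of the 4 for both genes, and lactation had 174.6 CPM of Idi1. C1qtnf6, a secreted protein, had 88.6 CPM in the adult, 69.6 and 66.2 under placebo and 193 in pregnancy.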
